A study of Homo sapiens with 19 samples.

Results

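Control knockdown (KD) cells carrying an empty vector were set against control KD cells without re-expression, to measure the ribose methylation of rRNA that Kasumi-1 cells have when fibrillarin (FBL) is not knocked down, and how far it moves between these 2 control backgrounds. Kasumi-1 is an established acute myeloid leukaemia cell line. The libraries were chosen by their sample titles: 4 of the 19 RiboMethSeq libraries, 2 in each background. All 4 came from cells grown in medium with 20% serum and given 100 ng/ml doxycycline, the agent that induces the hairpin in the knockdown cells. Their column names carry shLUC, and those of the empty-vector libraries also PCDH. Nothing in the labels states that the replicates came from different cultures, or that a line was 1 clone or a pool. The p-values therefore describe library-to-library spread, which may be technical. End counts on rRNA hold no FBL mRNA, and the knockdown label was not checked here.

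Box C/D small nucleolar RNAs (SNORDs) pair with rRNA and position FBL, the methyltransferase of the particle, on 1 chosen nucleotide, where it adds a methyl group to the 2′ oxygen of the ribose. Many of these guides are cut from introns of host genes that encode ribosomal proteins or act in ribosome production. A methylated ribose resists alkaline hydrolysis, so few RNA fragments end next to it. Score C turns this into a level: 1 minus the end count at the site divided by the weighted mean of the counts at 6 positions on either side. It approaches 1 where nearly all rRNA molecules are methylated and is set to 0 where the site has more ends than its flanks. It was deposited for 120 sites, of which 18S rRNA has 47, 28S rRNA 71 and 5.8S rRNA 2, named here by rRNA and nucleotide.

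The 2 backgrounds differed in depth, and 1 library of each stood apart. Control KD held 6832913 and 5533150 end counts, and control KD with empty vector 11576861 and 13278107. The median flanking count of a site was 613.7 and 248.1 without re-expression and 1284 and 998.7 with empty vector. In replicate 2 of the empty vector a single nucleotide, position 15 of 28S, took 20.8% of all ends, compared with a share of 0.572 to 1.70% in the remaining 3 libraries. Replicate 2 of control KD had 27.2% of its counts in a stretch of 28S that begins just after 28S-2388 and contains 28S-2402, picked after its values were seen, against 6.41% in replicate 1 and 4.35 and 4.61% with empty vector. The 95% counting interval of score C, from Poisson counts, had a median half-width of 0.01 and 0.0131 in replicates 1 and 2 of control KD and of 0.0106 and 0.0117 with empty vector. The reads carry no molecular identifiers, so neither these intervals nor the limits below cover more than counting error.

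Most sites were near full methylation in all 4 libraries. The mean over the 4 libraries was 0.97 or more at 65 sites, from 0.9 to 0.97 at 28, from 0.5 to 0.9 at 18 and under 0.5 at 9. At 82 sites every library scored 0.9 or more, and at 38 sites every library scored 0.97 or more. The range over the 4 libraries had a median of 0.033, stayed under 0.05 at 75 sites and passed 0.2 at 12. It was narrow at the well methylated sites, with a median of 0.020 in the highest class, and wide at the lowest, with a median of 0.377 under 0.5. Some scores were exactly 1 because no end was counted: 4 and 19 sites in replicates 1 and 2 of control KD, and 1 and 2 with empty vector. In replicate 2 of control KD the limit that a count of 0 allows, taken as 3 counts, put these 19 scores at no less than 0.859 to 0.993.

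**Figure D1:**
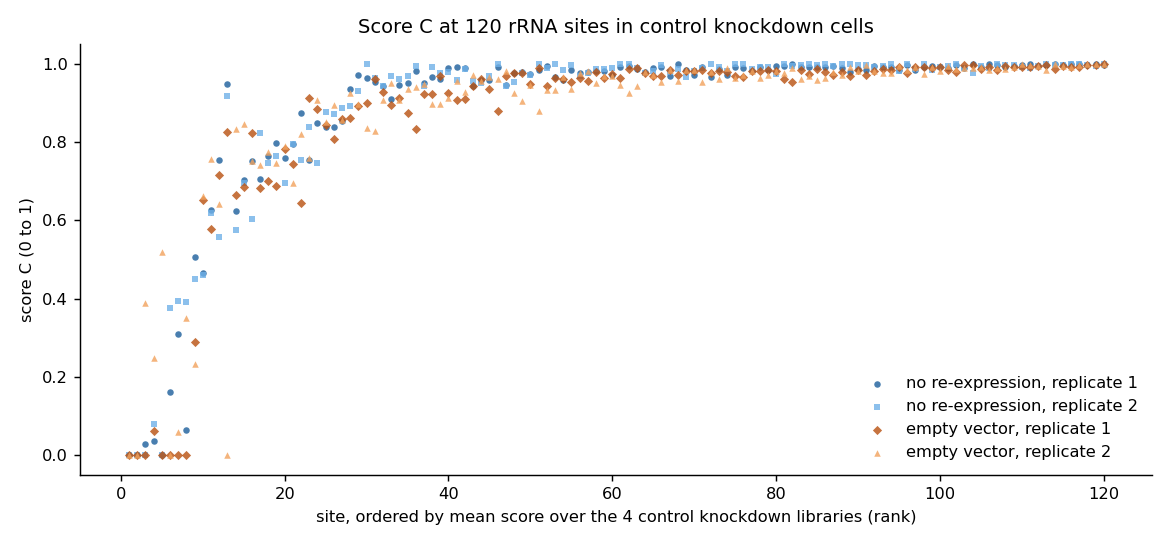
Score C (0 to 1, vertical axis) at the 120 sites ordered by their mean over the 4 control KD libraries (horizontal axis, rank), with 1 point for each library. The 93 sites with a mean of 0.9 or more form the flat part at the right, and libraries spread most among the 27 sites below it.

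The 9 sites with a mean under 0.5 were nearly all positions without an established guide. Of these 8 carry a predicted or unknown guide in the deposited annotation, and the other, 18S-1668, has no guide named there. 18S-1668 and 28S-1339 scored 0 in all 4 libraries. 18S-936, 18S-1680 and 18S-1441 had means of 0.105, 0.107 and 0.130, in each case with the highest value in replicate 2 of the empty vector. 18S-1705, 28S-2739 and 18S-1606 had means of 0.135, 0.191 and 0.201. 18S-1410 was the highest of the 9 at 0.369. Of the 13 sites with a predicted or unknown guide none had a mean of 0.9, the highest being 0.816 at 28S-1029.

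Partial methylation at sites with an established guide was reproducible at some and loose at others. The 18 sites from 0.5 to 0.9 included 13 of these. 28S-2848 (SNORD50A) scored 0.854 and 0.885 in control KD and 0.859 and 0.856 with empty vector. 28S-2774 (SNORD99) had a mean of 0.852 ± 0.016 (SD over the 4 libraries) and 28S-2863 (SNORD50A) of 0.746 ± 0.032. At these 3 sites the 2 backgrounds overlapped. 28S-1868 (SNORD48) scored 0.759 and 0.695 in control KD and 0.781 and 0.789 with empty vector. 28S-4560 (SNORD119) ranged from 0.558 to 0.755, both ends being the 2 replicates of control KD. 28S-4937, with a predicted guide, scored 0.625 and 0.575, then 0.663 and 0.832, and 28S-4588 0.703 and 0.694, then 0.685 and 0.845. In both the highest value was that of replicate 2 of the empty vector. Among the partial sites with an established guide the lowest mean was 0.560 at 28S-2402. Next came 0.645 at 18S-1447, 0.668 at 28S-4560 and 0.672 at 18S-174. The SDs over the 4 libraries were 0.112, 0.078, 0.087 and 0.451, and 18S-1447, 28S-4560 and 18S-174 do not differ beyond their spread. At 28S-2402 the SD was 0.0043 within control KD and 0.0067 within empty vector. In control KD its mean was 0.463, against 0.623 (SD 0.0059) at 18S-1447. With empty vector these means were 0.657 and 0.667 (SD 0.127 at 18S-1447). The control KD scores of 28S-2402 rest on high counts before the site, given below.

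Score C was slightly lower with empty vector over the rRNA as a whole. The mean over the 120 sites was 0.884 and 0.887 in the control KD libraries and 0.864 and 0.872 with empty vector, and the groups did not overlap. The group means were 0.886 ± 0.0022 and 0.868 ± 0.0059 (SD, n = 2). Their difference was -0.018, and the exact permutation p, two-sided, was 0.333. With 6 arrangements of 2 against 2 libraries no smaller p can be reached. The median site scored 0.983 and 0.986 in control KD and 0.968 and 0.960 with empty vector. On the unprotected scale, the end count at the site as a percentage of its flanking mean, the median site stood at 1.75 and 1.43% in control KD and at 3.17 and 3.95% with empty vector. Near full methylation a small change of score C is thus a large change of the remaining ends. The deeper libraries are those with empty vector, and the part of depth in this difference was not tested.

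**Figure D2:**
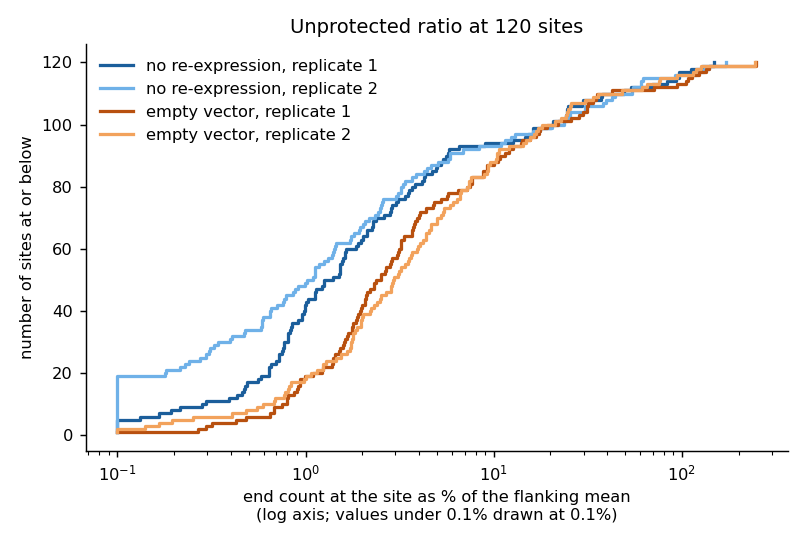
Number of sites (vertical axis) whose end count was at or below a given percentage of the flanking mean (horizontal axis, log scale, values under 0.1% drawn at 0.1%) in each of the 4 control KD libraries. The curves of the 2 libraries without re-expression lie to the left over the range of the well methylated sites, with medians of 1.75 and 1.43% against 3.17 and 3.95%, and the 4 curves meet at the poorly methylated end.

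Single sites moved little. The estimate was lower with empty vector at 87 sites, higher at 31 and equal at 2, with a median change of -0.012 over all sites. The 2 equal sites were 18S-1668 and 28S-1339, where the scores of all 4 libraries were set to 0. On the counts 28S-1339 was called lower by edgeR (adjusted p = 0.0031) and 18S-1668 was not called. The change was under 0.05 in size at 91 sites and over 0.1 at 11. Both empty-vector libraries lay below both control KD libraries at 54 sites (45% of the sites) and above them at 8 (6.67%), and the groups overlapped at 58. Replicates themselves differed by a median of 0.009 in control KD and 0.014 with empty vector, against a median size of 0.018 for the change between background means. Single libraries of different backgrounds differed by medians of 0.013 to 0.025, the lowest of which, between the replicates numbered 1, was no larger than that between the empty-vector replicates. By limma with the 14 knockdown libraries in 1 fit, 9 sites fell and 1 rose at an adjusted p under 0.05, which is 8.33% of the 120 sites (7.5% lower and 0.833% higher). After setting the medians of all libraries equal, 3 were lower and 2 higher. The edgeR test on the counts called 49 sites (40.8%), 44 lower (36.7%) and 5 higher (4.17%). Without replicate 2 of the empty vector 0 sites were called lower and 1 higher by limma, while 24 had an unadjusted p under 0.05, 22 of them lower.

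**Figure D3:**
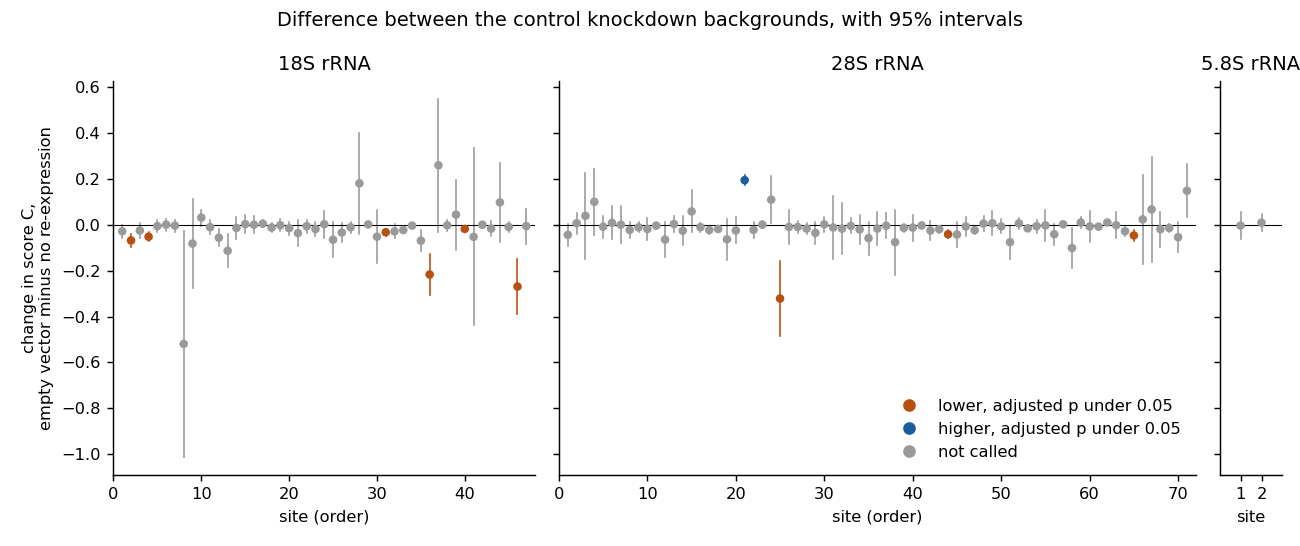
Change in score C between control KD with empty vector and control KD without re-expression (vertical axis) at each site in its order along 18S, 28S and 5.8S rRNA (horizontal axis), with the estimate as a point and its 95% interval from limma as a line. The 9 called lower sites and the 1 called higher site are coloured. The wide interval at the left belongs to 18S-174.

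The called sites included 6 well methylated ones that fell by less than 0.1. 18S-99, guided by SNORD57 of the NOP56 gene, scored 0.966 and 0.99 in control KD and 0.923 and 0.896 with empty vector. It fell by 0.069 (SE 0.012, adjusted p = 0.0124 by limma). Its ends stood at 3.37 and 0.995% of the flanks in control KD and at 7.65 and 10.4% with empty vector, so all 4 libraries had a deep gap there. In replicate 2 of the empty vector the neighbouring positions 99 and 102 held 2342 and 3047 ends, more than the other flanking positions. Against the median of the flanking counts the change at 18S-99 was -0.126 (adjusted p = 0.0482 by limma), and with flanks of 2 positions -0.045 (adjusted p = 0.0126). At 18S-121 (SNORD4A and SNORD4B) the scores were 0.993 and 0.989, then 0.944 and 0.934. It fell by 0.052 (SE 0.009, adjusted p = 0.0124 by limma). The 2 empty-vector values lay closer to each other than to either control KD value, as they did at 18S-99.

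The other 4 of these sites behaved alike, with narrow pairs. 28S-4541 (SNORD63) scored 0.984 and 0.996 in control KD and 0.952 and 0.934 with empty vector. 28S-3820, the site of the GAS5-hosted SNORD74, scored 0.993 and 1, then 0.963 and 0.946. The groups were separate at both sites, as they were in that direction at 54 of all 120 sites (45%). 18S-1288, the site of SNORD110 from NOP56, scored 0.992 and 0.997, then 0.969 and 0.954. Its pairs were also separate. 18S-1490, the site of the SNHG1-hosted SNORD25, scored 0.996 and 0.998, then 0.97 and 0.98. These 4 fell by 0.047, 0.042, 0.033 and 0.018, with adjusted p by limma from 0.0132 to 0.0202. The counts behind such scores were small in control KD: 28S-3820 rested on 1 and 0 ends against 13 and 13 with empty vector, and 18S-1490 on 6 and 1 ends against 50 and 52. When the medians of the libraries were made equal none of the 6 was called, and their changes lay between -0.049 and 0.0015, the last at 18S-1490. Against the median of the flanking counts, an alternative added after seeing the data, 18S-1490 changed by -0.126 (adjusted p = 0.0444 by limma).

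Among the sites called lower by limma, the 3 largest falls were at poorly methylated positions with a predicted or unknown guide. 28S-2739 scored 0.310 and 0.393 in control KD and 0 and 0.060 with empty vector, a change of -0.322 (SE 0.071, adjusted p = 0.0202 by limma). 18S-1705, whose predicted guide is SNORD43, scored 0.162 and 0.377, then 0 and 0. Not set to 0, its empty-vector scores were -0.392 and -0.267. 18S-1410 scored 0.505 and 0.449, then 0.288 and 0.233, a change of -0.217 (SE 0.039, adjusted p = 0.0124 by limma). 18S-1705 had few counts: its flanking mean was 106.2 and 24.1 in control KD and 158.1 and 99.4 with empty vector. With flanks of 2 positions none of the 3 was called, and the change at 18S-1705 was -0.029. Against the median of the flanking counts none was called either, and 28S-2739 changed by 0. Over its alternatives 28S-2739 was called in 7 of 15.

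The only site called higher by limma was 28S-2402, whose guides are given as SNORD143 and SNORD144. It scored 0.466 and 0.460 in control KD and 0.652 and 0.662 with empty vector, so each pair agreed within 0.01 while the pairs were far apart. Position 2407 in the flank held 37958 ends in replicate 2 of the empty vector, between neighbours of 6806 and 16679. It held 9605 and 32514 ends in control KD and 11132 in replicate 1 of the empty vector. The part of this high count in the score of 0.662 was not tested. The rise was 0.194, with an SE of 0.0095 and an adjusted p by limma of 2.26e-06. The site was the most deeply counted of those named, with 8612 and 29150 ends in control KD and 6591 and 6894 with empty vector. In control KD positions 2404 and 2405 after it held 10455 and 7558 ends in replicate 1 and 36248 and 29350 in replicate 2. Position 2401 before it held 47523 and 141479. In control KD there was thus no clear dip against the positions after the site, and the score rested on the counts before it. Score C was 0 here in the FBL KD libraries of both backgrounds, which narrows the shared estimate of spread. With scores not set to 0 the SE was 0.054 and the adjusted p by limma 0.0483, and in a fit of the 4 control libraries alone the adjusted p was 0.154. The stretch that held 27.2% of the counts of replicate 2 of control KD contains this site. Its score there matched that of replicate 1, where the stretch held 6.41%.

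At several sites replicate 2 of the empty vector stood apart from the other 3 libraries. 18S-174, a SNORD45C site, scored 0.948 and 0.916 in control KD, 0.825 in replicate 1 of the empty vector and 0 in replicate 2. Its change of -0.519 had an SE of 0.215 and was not called (adjusted p = 0.189 by limma). With that library included, the edgeR test on the counts called 18S-174 lower (adjusted p = 0.00412). Without that library the change was -0.107 (adjusted p = 0.724 by limma). The position counted for 18S-174 held 33, 17 and 114 ends in the other 3 libraries and 628 in this one, against flanking means of 629.5, 202.5, 651.2 and 550.1. Position 170, inside the same window, held 770, 178 and 660 ends in the other 3 and 1761 in this one.

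High counts at isolated positions occurred in that library. Positions with more than 5 times the share of counts of each of the other 3 control libraries, and at least 20 counts, numbered 14 in it and held 24.9% of its counts, of which position 15 of 28S alone held 20.8%. The other libraries had 1, 5 and 2 such positions. At more than 3 times the share it had 66 with 31.7% of its counts, and replicate 2 of control KD had 80 with 37.4%. This measure was chosen after the values were seen. At 18S-1441, a position with a predicted guide, position 1446 in the flank held 13599 ends in this library and 983, 426 and 1835 in the other 3. The score was 0.518 in this library and 0 in the other 3, a rise called by edgeR (adjusted p = 0.0354) and not by limma. 18S-1447, the SNORD127 site, has the same position in its flank and scored 0.756 there, against 0.627 and 0.618 in control KD and 0.577 in replicate 1 of the empty vector. Recomputed against the median of the flanking counts, an alternative added after seeing the data, the change at 18S-1447 was -0.020 in place of 0.044, and neither was called.

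**Figure D4:**
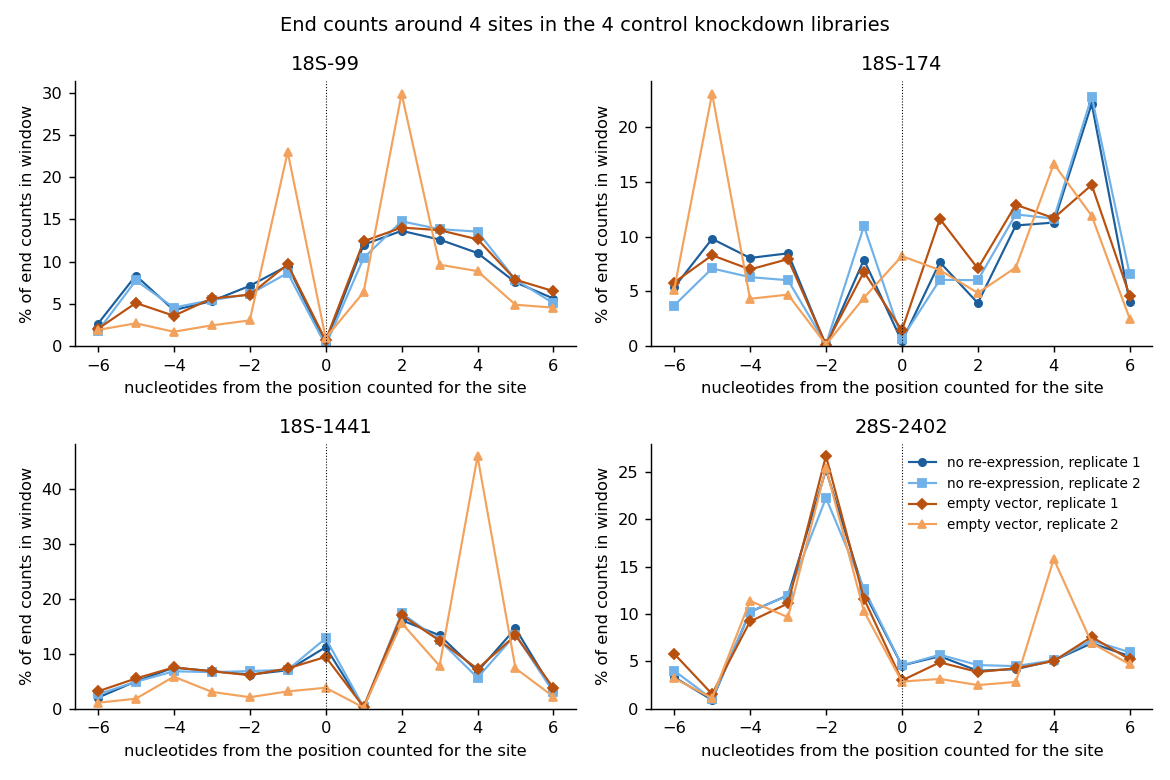
Share of the end counts of a window of 13 positions (vertical axis, percent) by distance from the position counted for the site (horizontal axis, nucleotides), for 18S-99, 18S-174, 18S-1441 and 28S-2402 in the 4 control KD libraries. All 4 libraries dip at 0 for 18S-99, replicate 2 of the empty vector has no dip at 0 for 18S-174 (628 ends), and its peak at 4 for 18S-1441 is the 13599 ends at position 1446.

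Grouped by the host gene of the guide, the median change was negative in each of 5 lists, between -0.039 and -0.016. These counts stand beside 9 of 120 sites (7.5%) called lower and 1 (0.833%) higher by limma in all. Of the 10 sites with GAS5-hosted guides 1 fell, 28S-3820, and 0 rose; the median change was -0.016, against -0.012 over all sites. Of the 8 SNHG1-hosted sites 1 fell, 18S-1490, with a median of -0.022. Of the 5 RPL13A-hosted sites 0 were called by limma, with a median of -0.023. There 18S-1326 (SNORD33) changed by -0.029 and 28S-4506 (SNORD35A and SNORD35B) by -0.028, both with the groups not overlapping. In that direction the groups did not overlap at 54 of all 120 sites (45%). Of the 2 RPL23A-hosted sites 18S-121 fell, and their median was -0.039. Of the 4 RPL7A-hosted sites, whose median was also -0.039, 0 were called by limma, with 28S-2352 at -0.064 and 28S-3703 at -0.059. Without replicate 2 of the empty vector those changes were 0.0035 and -0.0045. The edgeR test on the counts called 5, 4, 4, 2 and 2 sites lower in these 5 lists against 44 of all 120, with 1 higher in the GAS5 list.

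Of the 3 sites guided by SNORD14, SNORD43 and SNORD104 limma called 0, against 10 of all 120 sites (8.33%). 18S-462 (SNORD14A and SNORD14B) scored 0.972 and 0.931 in control KD and 0.892 and 0.897 with empty vector. Its change of -0.057 had an adjusted p of 0.0599 by limma. The edgeR test on the counts called 18S-462 lower (adjusted p = 0.0463), the only 1 of the 3, against 44 of all 120 sites (36.7%). 18S-1703 (SNORD43) and 28S-1327 (SNORD104) changed by -0.009 and 0.008. At these last 2 sites the backgrounds overlapped.

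By position, sites called lower by limma, 7.5% of all sites, lay in both 18S and 28S. In 18S 2 of the 23 sites up to 18S-668 and 4 of the 24 from 18S-683 on fell. In 28S 0 of 15 sites up to 28S-1868, 1 of 17 from 28S-2338 to 28S-2863, 1 of 20 from 28S-3680 to 28S-4032 and 1 of 19 from 28S-4166 on fell, and the rise at 28S-2402 was in the second of these stretches. Up to 28S-1868 the estimates furthest from 0 were 0.10 at 28S-1303 and -0.065 at 28S-1731, neither called by limma. On the counts 28S-1303 was called higher by edgeR (adjusted p = 0.0256), and 28S-1731 was not called. The median change lay between -0.017 and -0.004 in each of the 6 stretches. The edgeR test called 6 sites lower and 1 higher of the 15 in the 28S stretch where limma called 0. Over all 120 sites it called 44 lower (36.7%) and 5 higher (4.17%).

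Of 28S-4469, 28S-2388, 28S-1868 and the pair of sites in 5.8S rRNA limma called 0, against 10 of all 120 sites (8.33%). The edgeR test on the counts called only 28S-2388 among them, as lower (adjusted p = 0.00407), against 49 of all 120 sites (40.8%). The backgrounds did not overlap at the 3 sites of 28S, as at 62 of all 120 sites (51.7%). 28S-4469, a site with no numbered guide in the annotation, scored 0.984 and 0.982 in control KD and 0.992 and 0.993 with empty vector, a change of 0.010 (95% interval -0.0027 to 0.022) that was not called. 28S-2388 (SNORD68) scored 0.942 and 0.943, then 0.928 and 0.907, a change of -0.025 (95% interval -0.082 to 0.032). At 28S-1868 the change was 0.058 (95% interval -0.034 to 0.149). In 5.8S rRNA position 14 (SNORD71) scored 0.839 and 0.870, then 0.808 and 0.894, and position 75 (SNORD96A and SNORD96B) 0.97 and 0.981, then 0.979 and 0.989. Both pairs overlapped, and the changes were -0.004 and 0.009.

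The same comparison in FBL KD cells, which shares no library with this one, gave larger changes. There the empty-vector libraries were called lower by limma than those without re-expression at 61 sites (50.8%) and higher at 7 (5.83%), 56.7% in all, with a median change of -0.040 against -0.012 in control KD cells. The number after shFBL in the column names also differs between those FBL KD backgrounds, and the 2 cannot be told apart. Of the sites named above, 28S-2388 scored 0.555 and 0.558 in FBL KD without re-expression and 0.094 and 0.151 with empty vector, against a difference of -0.025 in control KD cells. The flank after 28S-2388 lies in the stretch of 28S that begins just after it. In FBL KD that stretch held 34.6 and 40.3% of the ends without re-expression and 4.65 and 5.74% with empty vector. The part of this in the scores was not tested. 18S-121 differed by about as much in both, at -0.055 in FBL KD and -0.052 in control KD cells, the difference between these being -0.002 (SE 0.013, adjusted p = 0.916 by limma). Over all sites the 2 changes differed by limma at 36 (30%). The FBL KD change minus the control KD change was below 0 at 30 of them (25%) and above 0 at 6 (5%), a split that was 12 and 19 with library medians made equal.

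**Figure D5:**
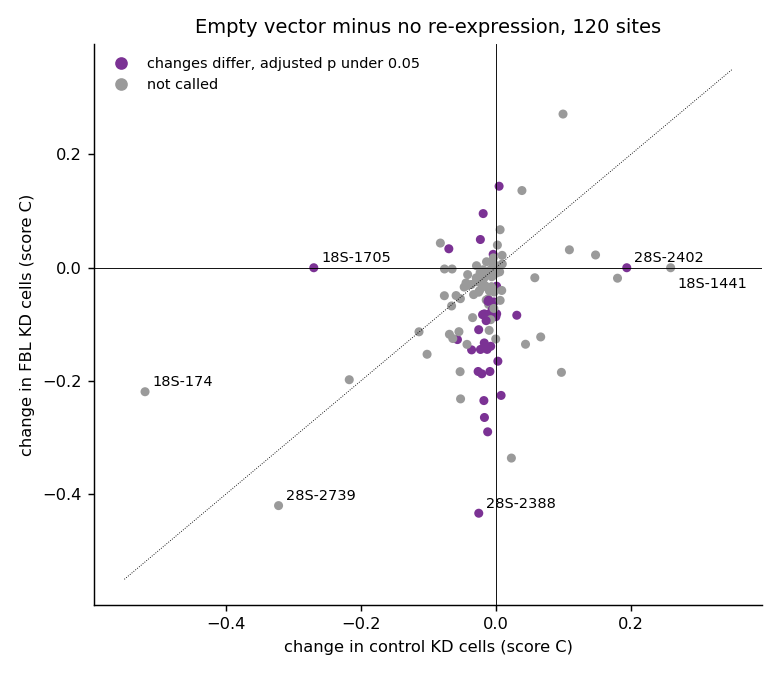
Change in score C between the backgrounds with empty vector and without re-expression in control KD cells (horizontal axis) and in FBL KD cells (vertical axis), 1 point for each of the 120 sites, with a dotted line where both are equal. Most points lie near 0 on the horizontal axis and below 0 on the vertical one, and the 36 sites whose 2 changes differ by limma are coloured (30 with the lower change in FBL KD cells and 6 with the higher, against 12 and 19 with library medians made equal).

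The control knockout clone, a single library labelled as untreated, stood beside both backgrounds. Its median score was 0.967, against 0.968 and 0.960 with empty vector and 0.983 and 0.986 without re-expression. It scored below both control KD libraries at 80 of the 120 sites and was nearer to the empty-vector mean at 62. At 28S-2402 it scored 0.353, lower than all 4 control KD libraries, and at 18S-174 it scored 0.873. With 1 library there was no test of these differences.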

How the data were processed

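RiboMethSeq, per the labels' protocols, used 100 ng of total RNA hydrolysed in alkali at 95 °C for 12 min. Per the submitters' processing notes the tools include cutadapt and Bowtie2, with versions, reference and fragment end not given in the sources used here. Deposited by the authors were raw end counts at 7000 rRNA positions, and score C, a fraction, at 120 sites. Read 1 position after the site, with weights from 1 to 0.5, the counts gave the deposited score in 2280 of 2280 cases within 1e-09. Score C is a ratio within a library.

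The site test was limma (version 3.58.1, R 4.3.3), two-sided, fitted over the 14 knockdown libraries with a coefficient per group and a variance trend. Benjamini-Hochberg adjustment ran over all sites, with calls at 0.05. The counts were also tested with edgeR 4.0.16 (quasi-likelihood, log flanking mean as offset). Counting intervals came from the delta method. The tests were also run on simulated site counts with a fixed spread, without the isolated high counts of the real libraries. No conclusion is drawn from that run. The permutation test used scipy 1.17.1 under Python 3.11.15. No pair of replicates agreed within sampling noise (chi-square of 397.3 and 699.8 per degree of freedom). No rRNA or guide sequence was used here.

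The libraries, lists and tests were chosen with earlier results of these data known. Named sites were up to 12 of the most changed called sites (10 were called), up to 4 called members of each list or else its 2 most changed, the 8 with the largest replicate difference, the 8 with the lowest mean, the 8 largest called differences between FBL KD and control KD cells, and 7 sites always given.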

Additional observations from a re-analysis of the deposited data

Results flagged for a closer look

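The change between backgrounds differed between FBL KD and control KD cells at 36 of the 120 sites by limma's test of the difference (30% of the sites), the FBL KD change minus the control KD change being below 0 at 30 and above 0 at 6. With library medians made equal the split was 12 and 19. The largest differences were -0.408 at 28S-2388 (SE 0.035, adjusted p = 0.000106 by limma), -0.278 at 28S-2848, 0.269 at 18S-1705, -0.248 at 28S-3723, -0.233 at 28S-1327, -0.217 at 28S-2863, -0.194 at 28S-2402 and -0.175 at 28S-1313. At 18S-1705 and 28S-2402 the FBL KD libraries scored 0 in both backgrounds, so their difference is that of the control KD cells alone. At the other 6 the estimates in control KD cells lay between -0.025 and 0.008. 28S-2402 lies in a stretch of 28S with uneven depth. 28S-2388 lies just before it, but the flanking positions after 28S-2388 are inside the stretch, so its counts enter that score too. That stretch held 27.2 to 40.3% of the end counts in 3 libraries (replicate 2 of control KD and the pair of FBL KD without re-expression) and 4.35 to 6.87% in the other 16 libraries. The part of this in the differences was not tested.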

How the results depend on the processing

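The count of 10 called sites (9 lower, 1 higher) was 31 on a logit scale, 49 with edgeR on the counts (44 lower, 5 higher), 5 with library medians made equal and 0 by limma with the 4 control libraries alone, where 31 sites had an unadjusted p under 0.05. Leaving out 1 library in turn gave 1 to 19: 6 and 5 without replicate 1 or 2 of control KD, and 19 and 1 without replicate 1 or 2 of the empty vector. A lone library is then assumed to vary like the other groups. The called site without replicate 2 of the empty vector was 28S-2402, which was called under 15 of 16 alternatives. All 10 sites were called by edgeR. The count of 36 differences between FBL KD and control KD cells was 15 on a logit scale, 6 with edgeR, 22 against the median of the flanking counts, and 20 to 40 with 1 library left out: 23 when replicate 1 and 22 when replicate 2 of the empty vector in FBL KD cells was dropped, and 20 without replicate 2 of control KD. The difference of -0.018 in the mean score ranged from -0.022 to -0.014 with 1 library left out and kept its direction under the alternatives tried. Making library medians equal was not among them. The library medians themselves differed by -0.020 between the group means of the 2 backgrounds.

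With the replicate block 12 sites were called (11 lower, 1 higher), and 33 differences. Equal numbers were not taken as pairs: replicate differences of the 2 control backgrounds had a Pearson r of 0.18 over sites.

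Among named sites that limma did not call, directions turned under single settings. With 1 library left out the ranges were -0.015 to 0.375 at 18S-936, -0.046 to 0.134 at 18S-1447, -0.227 to 0.122 at 18S-1606, -0.022 to 0.0026 at 18S-1703, -0.0064 to 0.022 at 28S-1327, -0.131 to 0.0035 at 28S-2352, -0.028 to 0.0039 at 28S-2848, -0.054 to 0.019 at 28S-2863, -0.045 to 0.012 at 28S-3723, -0.075 to 0.122 at 28S-4560 and -0.046 to 0.039 at 5.8S-14. With library medians made equal the changes were 0.010 at 18S-1703, 0.011 at 28S-1313, 0.0078 at 28S-2848, 0.0022 at 28S-2863, 0.0030 at 28S-3723, 0.016 at 5.8S-14 and, of the called sites, 0.0015 at 18S-1490. Against the median of the flanking counts they were -0.020 at 18S-1447, -0.075 at 18S-1680, -0.015 at 28S-1327 and -0.0045 at 28S-4560. With flanks of 2 positions 28S-1327 changed by -0.014, and on a logit scale 5.8S-14 by 0.0061. The median-flank setting and that without isolated high positions were added after seeing the data.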

Other observations

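Score C was also computed at 3171 positions outside the 120 listed sites whose flanking mean was at least 100 in all 4 control KD libraries. Of these 42 scored 0.9 or more in all 4, many of them in runs of neighbouring positions such as 28S-222 to 28S-225. 28S-3606, picked after its values were seen, scored 0.956 and 0.966 in control KD and 0.984 and 0.991 with empty vector, on flanking means of 7486 or more, and lies 74 nucleotides from the nearest listed site. In the FBL KD libraries its scores were 0.805 and 0.792 without re-expression, 0.658 and 0.634 with empty vector, 0.479 and 0.476 with the FBLTri mutant, 0.572 and 0.604 with the FBLQua mutant, and 0.847 and 0.853 with wild-type FBL.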
